A study of Mus musculus with 20 samples.

Results

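The genes described here are markers and transcription factors of upper-layer excitatory neurons of the cortex. They are Cux1, Cux2, Rorb, Rasgrf2, Lhx2, Pou3f2, Pou3f3, Mef2c and Bhlhe22, taken by symbol from the count tables of all 20 cortex libraries. All 9 of 9 were present among the 23413 genes of the tables and among the 15660 genes that passed the expression filter. The libraries came from the frozen cortex of APOE4 mice, in which a humanized APOE4 allele replaces mouse Apoe, at 22 months of age. All mice carried this allele, so no group without it was compared, and mouse Apoe was at 1.33 to 3.34 CPM (read counts scaled to the library total) in all 20 libraries. The mice had been fed a control diet (CD, written SD in the sample labels) or a ketogenic diet (KD, high in fat and low in carbohydrate) in isocaloric amounts for 12 months, from the age of 10 months. There were 5 CD-fed females, 4 KD-fed females, 5 CD-fed males and 6 KD-fed males, with 1 library per mouse. The comparisons ask how the long-term diet altered cortical gene expression in each sex.

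Excitatory neurons of the cortex are born in succession and settle in layers, and those of layers 2 to 4 form most of the connections between cortical areas and receive much of the thalamic input. Their identity is set by transcription factors that act in combination, among them POU, CUT, LIM and basic helix-loop-helix proteins, many of which remain on in the adult. Few of these genes are restricted to 1 layer or cell type: Mef2c is also made by interneurons and microglia, and Cux1 by most cells.

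Library totals ran from 12207161 to 29109990 counts, with a median of 19356308. The library numbers in the labels fall into 2 series of 10 libraries, each with mice of all 4 groups, and totals were 21015275 to 29109990 in series 1 and 12207161 to 17697342 in series 2. Within groups, 41 pairs of libraries were compared and none agreed within sampling noise, with a chi-square per degree of freedom of 7.01 to 112. The summed level of 18 genes of striatal spiny neurons set libraries apart: it was 2853 CPM in KD-fed female E68, 3193 in E61, 3656 in E207 and 4406 in KD-fed male E59, and 294 to 1319 in the other 16 libraries, the highest of these being CD-fed female E249. None of the 18 genes was at 0 in a whole group, and the defining markers Drd1 (listed as Drd1a) and Ppp1r1b were found in every library, Drd1a at 15.5 to 326 CPM. The sum of 9 cortical excitatory genes was 1127 to 2815 CPM over all libraries. Of the 9, 1 was near the floor on both diets, at 0 in 15 of 20 libraries, every CD-fed mouse among them, and at most 0.136 CPM.

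The 9 genes differed widely in level. Per kilobase of merged exons (GENCODE annotation of GRCm38), Mef2c, a MADS-box factor that controls synapse number in excitatory neurons, was highest at 87.6 ± 27.0 CPM per kb (mean ± SD over 20 libraries). Rasgrf2, an exchange factor for the GTPases Ras and Rac, followed at 23.2 ± 4.20 CPM per kb. Mef2c exceeded Rasgrf2 in 20 of 20 libraries.

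Bhlhe22, a helix-loop-helix factor of cortical area identity, was at 15.8 ± 8.18 CPM per kb. Rorb, a nuclear receptor prominent in layer 4, was at 12.9 ± 3.40 and Pou3f2 at 12.8 ± 3.74. These 3 could not be ordered, since Bhlhe22 exceeded Rorb in 13 of 20 libraries and Rorb exceeded Pou3f2 in 9 of 20. The lowest levels per kb were those of Pou3f3 at 7.78 ± 1.57, the LIM-homeodomain factor Lhx2 at 4.58 ± 1.58, and the CUT-homeodomain factors Cux1 at 3.71 ± 0.435 and Cux2 at 2.44 ± 1.005. Lhx2 exceeded Cux1 in 15 of 20 libraries, a difference within 1 SD of Lhx2, and Cux1 exceeded Cux2 in 18 of 20.

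The spread between libraries was as uneven as the level. Cux1 was the steadiest gene, with a ratio of 1.53 between its highest and lowest CPM and an SD of log2 CPM within series of 0.17, the 22.2th percentile of all genes tested. Bhlhe22 varied 8.64-fold and had an SD of 0.78, the 94.4th percentile, and Cux2 varied 8.96-fold with the 92.2th percentile. Lhx2, Mef2c and Pou3f2 lay at the 83.4th, 80.5th and 80.4th percentiles.

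**Figure D1:**
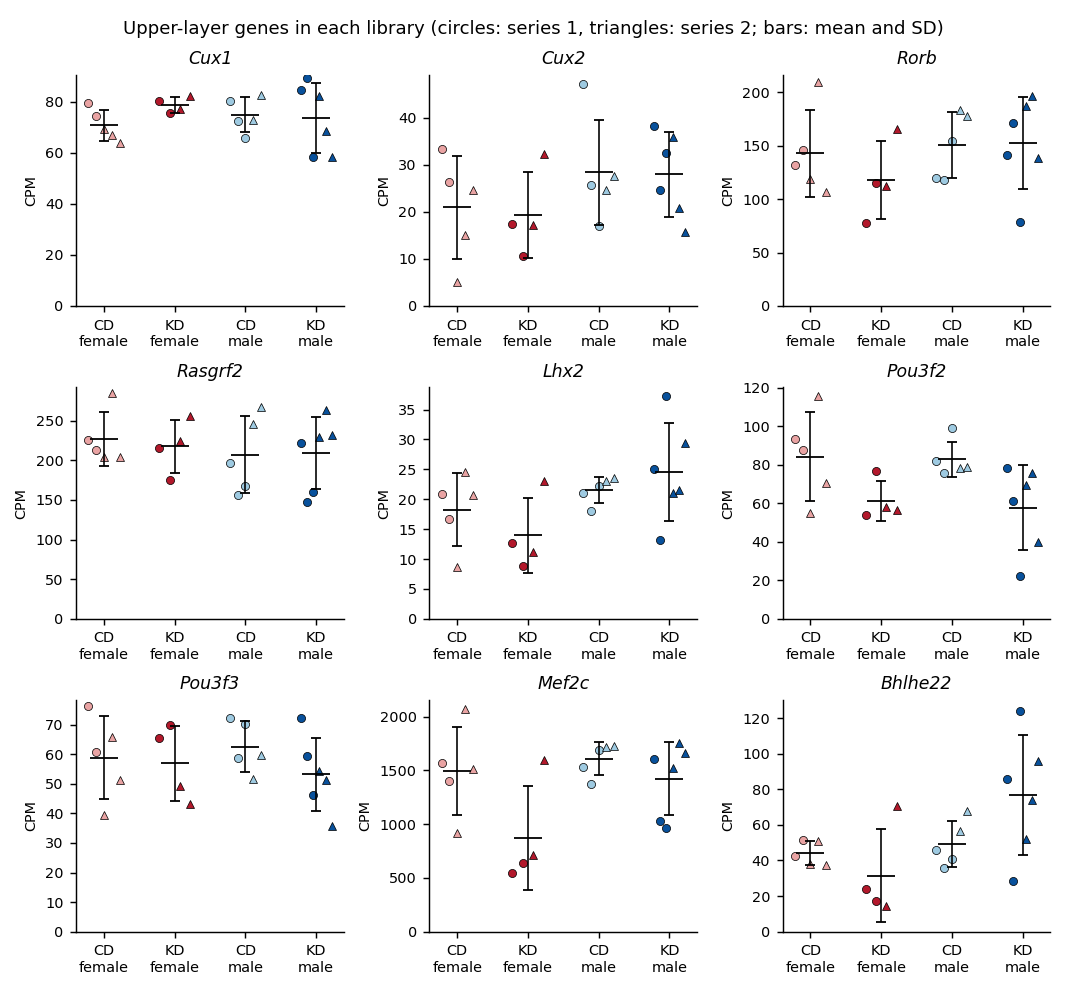
CPM of the 9 upper-layer genes (y axes, each from 0) in the 20 libraries by diet and sex (x axes). Points are mice, circles for library series 1 and triangles for series 2, and bars give the mean and SD of the group. Mef2c was at 547 to 708 CPM in 3 KD-fed females and at 1592 CPM in the fourth, whereas Cux1 stayed between 58.4 and 89.1 CPM in every library.

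The KD was first compared with the CD in females. No member met the DEG thresholds of FDR 0.1 and a 1.5-fold change, which 0.0447% of all genes tested did. The log2 fold change was below 0 for 8 of 9 members, against 47.3% of all genes, with a median over the members of -0.33, against 0.013 for all genes. At an unadjusted p under 0.05 there was 1 member, Mef2c, and 11.4% of all genes. In a bulk sample, fewer upper-layer neurons, less RNA of these genes per neuron and a different tissue content of the sample cannot be told apart.

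Mef2c gave the largest difference among the 9 members in females. The CD-fed females had 1515 (E228), 919 (E249), 2067 (E265), 1570 (E62) and 1399 (E67) CPM of Mef2c. The KD-fed females had 708 (E207), 1592 (E227), 547 (E61) and 641 (E68) CPM. E207, E61 and E68 were below all 5 CD-fed females, and E227 was in the upper part of the CD range, so the groups overlapped.

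The fitted log2 fold change of Mef2c was -0.86 (SE 0.25, 95% interval -1.39 to -0.33), with an adjusted p of 0.218 by edgeR's quasi-likelihood test. A two-sided exact permutation test of the 9 libraries gave p = 0.0714, where the smallest possible is 0.00794. Single libraries and the choice of test decided the call: without E227 the log2 fold change was -1.24 (adjusted p = 0.00488), without E249 it was -1.02 (adjusted p = 0.0184), and DESeq2's Wald test gave -0.88 (adjusted p = 0.050). Of all genes tested, 906 (5.68%) were DEGs without E227 and 1046 (6.66%) without E249. Within series 1 alone the log2 fold change was -1.36 (adjusted p = 0.0208), and within series 2 alone -0.47 (adjusted p = 0.834), in edgeR's test.

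The 3 KD-fed females of low Mef2c were the 3 with a high striatal sum, and the KD-fed female E227 had a striatal sum of 426 CPM, within the CD range. CD-fed female E249, the lowest of its group for Mef2c, had the highest striatal sum of its group at 1319 CPM. The part of this difference in the result for Mef2c was not tested.

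Bhlhe22 followed the same libraries. The CD-fed females had 37.3 (E228), 38.2 (E249), 51.1 (E265), 42.4 (E62) and 51.6 (E67) CPM. The KD-fed females had 14.3 (E207), 70.4 (E227), 24.2 (E61) and 17.3 (E68) CPM. The same 3 KD-fed females lay below all CD-fed females and E227 above all of them.

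In females, the log2 fold change of Bhlhe22 was -0.58 (SE 0.39, edgeR adjusted p = 0.647). Without E227 it was -1.29 (adjusted p = 0.0469), which would make Bhlhe22 a DEG, as were 5.68% of all genes in that fit. Within series 1 it was -1.22 (adjusted p = 0.222) and within series 2 it was -0.072 (adjusted p = 0.973).

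Lhx2 had 20.7 (E228), 8.60 (E249), 24.5 (E265), 20.8 (E62) and 16.8 (E67) CPM in CD-fed females. In KD-fed females it had 11.3 (E207), 23.1 (E227), 12.7 (E61) and 8.92 (E68) CPM. The lowest value was that of a CD-fed mouse, E249, and the groups overlapped throughout. The log2 fold change was -0.46 (SE 0.30, edgeR adjusted p = 0.623). Without E227 it was -0.79 (adjusted p = 0.156) and without E68 it was -0.31 (adjusted p = 0.706), so single libraries moved it without making it a DEG.

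The remaining genes differed less or less evenly between the diets in females. Rorb gave a log2 fold change of -0.33 (SE 0.23) and Rasgrf2 one of -0.096 (SE 0.14), with edgeR adjusted p of 0.669 and 0.888. Cux1 was the only member above 0 in females, at 0.094 (SE 0.12, adjusted p = 0.854), with 63.7 to 79.4 CPM on the CD and 75.6 to 82.2 CPM on the KD. Its interval, -0.15 to 0.34, excluded a 1.5-fold change, as did that of Rasgrf2, -0.38 to 0.19.

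Cux2 in females gave a log2 fold change of -0.13 with a wide interval, -0.97 to 0.70. The direction differed between the series, at -1.13 in series 1 (adjusted p = 0.166) and 0.65 in series 2 (adjusted p = 0.834). CD-fed female E249 had 5.16 CPM of Cux2 and the other 4 had 15 to 33.4 CPM.

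**Figure D2:**
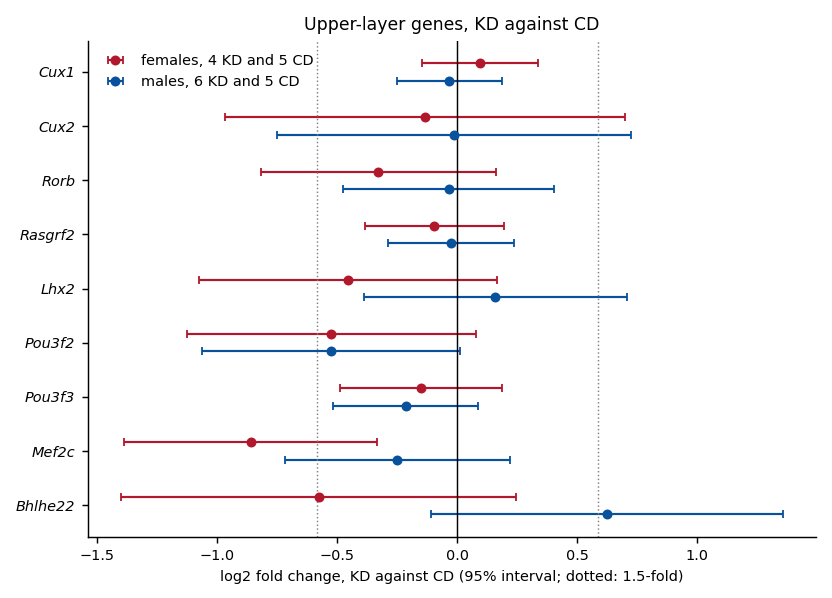
Log2 fold changes of the 9 genes, KD against CD (x axis), in females (red) and males (blue), with 95% intervals from edgeR's fit of all 20 libraries. The interval of Mef2c in females, -1.39 to -0.33, was the only one of the 18 without 0.

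The same comparison was made in males. No member was a DEG, and 0% of all genes were. At an unadjusted p under 0.05 there were 0 members and 3.56% of all genes, and DESeq2 called 0 members. The log2 fold change was below 0 for 7 of 9 members, against 50.9% of all genes, with a median of -0.033.

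Mef2c was at 1375, 1527, 1692, 1718 and 1729 CPM in CD-fed males, and in KD-fed males its lowest, median and highest values were 968 (E64), 1560 and 1757 (E256) CPM. E64 and E59, the latter at 1027 CPM, were below all CD-fed males, and the other 4 lay within or above the CD range. The log2 fold change was -0.25 (SE 0.22, edgeR adjusted p = 0.9998).

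Bhlhe22 was at 35.7 to 68.04 CPM in CD-fed males (median 45.8), and at 28.6 (E59), 79.7 and 124 (E64) CPM as lowest, median and highest in KD-fed males. In all, 4 of the 6 KD-fed males were above all CD-fed males and E59 was below them. The log2 fold change was 0.62 (SE 0.35, adjusted p = 0.9998), and 0.37 without E64.

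The difference of the 2 diet effects, that in females minus that in males, was tested directly. No member passed, and 0% of all genes did. At an unadjusted p under 0.05 the only member was Bhlhe22, where 2.14% of all genes were. Its difference was -1.20 on the log2 scale (SE 0.53, interval -2.31 to -0.098, edgeR adjusted p = 0.9999). Without KD-fed female E227 it was -1.91 (adjusted p = 0.114). That of Mef2c was -0.61 (SE 0.33), and its interval, -1.31 to 0.090, held 0.

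The POU factors Pou3f2 and Pou3f3 act together in the production and migration of upper-layer neurons, and both are single-exon genes. Pou3f2 lies on chromosome 4 from 22482780 to 22488366, on the minus strand, and Pou3f3 on chromosome 1 from 42695768 to 42703176, on the plus strand (GRCm38). Their levels varied together across libraries (Pearson r = 0.84 and Spearman coefficient = 0.78 over 20 libraries after removal of series means, as a description). The 250 bases before the most upstream RefSeq start (GRCm38.p6) are shown for this pair because it moved together, with matches to the CCAAT box (CCAAT, or ATTGG on the other strand) in capitals. They cover chr4:22488367-22488616 on the minus strand and chr1:42695518-42695767 on the plus strand.
Pou3f2: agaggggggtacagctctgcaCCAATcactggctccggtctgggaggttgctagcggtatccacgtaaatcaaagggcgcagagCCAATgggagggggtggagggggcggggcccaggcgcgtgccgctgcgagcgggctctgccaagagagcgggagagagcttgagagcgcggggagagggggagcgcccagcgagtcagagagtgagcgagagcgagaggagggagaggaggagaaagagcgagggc
Pou3f3: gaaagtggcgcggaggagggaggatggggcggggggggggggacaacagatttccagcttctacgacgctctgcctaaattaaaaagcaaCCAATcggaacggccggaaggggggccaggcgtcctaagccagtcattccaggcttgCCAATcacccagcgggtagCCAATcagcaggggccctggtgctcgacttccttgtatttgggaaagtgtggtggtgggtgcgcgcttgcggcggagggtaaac

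The CCAAT box was counted after the sequences had been seen. Pou3f2 held 2 matches and Pou3f3 held 3. Of the 8 members with an entry in the RefSeq promoter table, 4 held a match, against 33.8% of the 32851 promoters of the same length, so the motif was not particular to the members.

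Pou3f2 was the member with the lowest KD values relative to the CD in males. The CD-fed males had 75.8 (E58), 78.7 (E251), 78.8 (E264), 81.9 (E51) and 99.0 (E66) CPM. The KD-fed males had 22.3 (E64) as the lowest, 65.4 as the median and 78.6 (E53) as the highest CPM. In all, 5 of 6 KD-fed males were below all CD-fed males and E53 was within the CD range.

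In males, the log2 fold change of Pou3f2 was -0.53 (SE 0.26, edgeR adjusted p = 0.9998), and -0.33 without E64. The two-sided exact permutation test gave p = 0.0433, and 0.429 after adjustment over the 18 tests of 9 genes in 2 sexes, none of which passed an adjusted p of 0.1. No member's diet groups were free of overlap in either sex, where 0.402% of all genes in females and 0.115% in males were without overlap and lower on the KD. In females the log2 fold change was also -0.53 (SE 0.29, edgeR adjusted p = 0.528). The 5 CD-fed females had 70.4 (E228), 55.0 (E249), 116 (E265), 93.3 (E62) and 87.5 (E67) CPM and the 4 KD-fed females 58.4 (E207), 56.5 (E227), 53.7 (E61) and 76.6 (E68) CPM, so all 4 were below the CD median but within or near the CD range.

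Pou3f2 in KD-fed females did not divide as Mef2c did. E227, with Mef2c and Bhlhe22 at or above the CD level, had 56.5 CPM of Pou3f2, close to E61 and E207. Pou3f3 gave smaller log2 fold changes, -0.15 (SE 0.16) in females and -0.21 (SE 0.14) in males, with edgeR adjusted p of 0.819 and 0.9998. Of the other genes of this family, Pou3f1 had a log2 fold change of -0.37 in males (adjusted p = 0.9998), and -0.59 without E59. Pou3f4, which was low at 0.397 to 5.30 CPM over all females, had one of 1.45 in females (adjusted p = 0.264), which was 0.66 without E207 (adjusted p = 0.880) and 1.71 without E227 (adjusted p = 0.0558).

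Averaged over the sexes, the KD gave 0 DEGs among the members, where 0.268% of all genes were. At an unadjusted p under 0.05 there were 2 members, Mef2c and Pou3f2, and 13.9% of all genes. Mef2c had a log2 fold change of -0.56 (SE 0.17, edgeR adjusted p = 0.151) and Pou3f2 one of -0.53 (SE 0.19, adjusted p = 0.214). Both became DEGs without CD-fed female E249, with adjusted p of 0.0166 and 0.0723, and Mef2c did so without E227, with an adjusted p of 0.00896. The shares of all genes called in these fits are not given here.

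Between the sexes, averaged over the diets, 0 members were DEGs, where 0.134% of all genes were. The members with an unadjusted p under 0.05 were Lhx2, Mef2c and Bhlhe22, 3 of 9, against 13.6% of all genes. Their log2 differences, females minus males, were -0.56 (SE 0.20), -0.47 (SE 0.17) and -0.77 (SE 0.27), with edgeR adjusted p of 0.248, 0.251 and 0.240. Without KD-fed female E227 all 3 became DEGs, with adjusted p of 0.0352, 0.0158 and 0.00995. The share of all genes called in that fit is not given here. Among the 4 libraries of high striatal sum, 3 were from females, and the part of this in the differences was not tested.

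Lhx2, Mef2c and Bhlhe22 were also correlated with each other. After removal of series means, r was 0.85 for Lhx2 with Bhlhe22 (Spearman coefficient 0.79), 0.72 for Lhx2 with Mef2c (Spearman 0.58) and 0.64 for Mef2c with Bhlhe22 (Spearman 0.46). Over all 36 pairs of members the median r was 0.31 and the range was -0.34 to 0.85, with 9 pairs above 0.5 and 7 below 0, the lowest being Cux1 with Lhx2. The 9 genes did not vary as a single unit. These are descriptions over the same 20 libraries, which share depth and tissue content.

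The promoter windows of Lhx2 and Mef2c are shown because these genes belonged to the same correlated pair, and Bhlhe22 is named only. They cover chr2:38339031-38339280 and chr13:83503784-83504033, both on the plus strand of GRCm38.p6, from the same RefSeq table. Capitals mark the cAMP-response half-site TGACG (or CGTCA) in Lhx2 and the CCAAT box, read on the other strand, in Mef2c.
Lhx2: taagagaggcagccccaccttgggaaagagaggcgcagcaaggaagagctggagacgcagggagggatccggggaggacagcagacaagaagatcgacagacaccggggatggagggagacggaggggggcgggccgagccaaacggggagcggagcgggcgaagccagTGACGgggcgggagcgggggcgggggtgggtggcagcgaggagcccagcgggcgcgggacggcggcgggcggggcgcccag
Mef2c: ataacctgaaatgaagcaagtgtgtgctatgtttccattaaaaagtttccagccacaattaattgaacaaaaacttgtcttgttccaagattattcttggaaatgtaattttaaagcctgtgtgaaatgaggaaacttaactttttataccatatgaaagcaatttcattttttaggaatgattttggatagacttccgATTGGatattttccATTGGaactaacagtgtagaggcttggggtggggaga

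The windows differed in base composition, with 72.8% G and C in Lhx2 and 33.6% in Mef2c. TGACG was in 2 of 8 members, against 17.8% of all promoters. The other motifs searched on both strands, ATCGAT for CUX proteins, ATGCAAAT for POU proteins, TAATTA for LIM-homeodomain proteins, AGGTCA for ROR receptors and the site of MEF2 proteins, were in 0 of 8 members, and in 0.728%, 1.60%, 4.84%, 14.0% and 3.20% of all promoters. No marked match overlapped one of another motif.

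**Figure D3:**
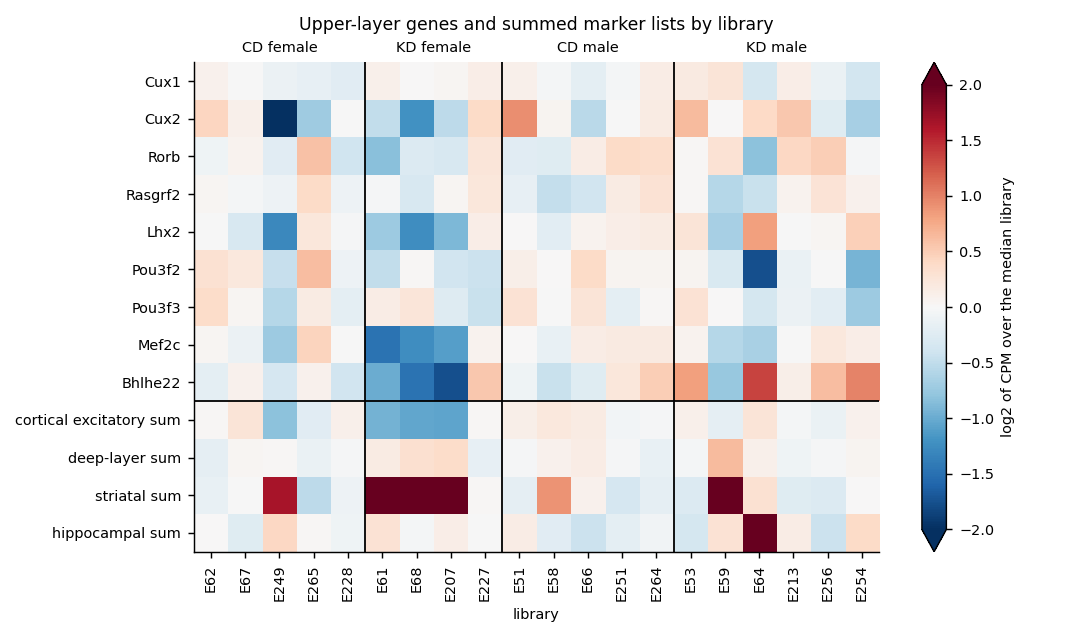
Log2 of CPM over the median library (color, blue lower and red higher) for the 9 genes and for 4 summed marker lists (y axis) in the 20 libraries grouped by diet and sex (x axis); colors are cut at -2 and 2. E61, E68 and E207 were low in Lhx2, Mef2c, Bhlhe22 and the cortical excitatory sum and high in the striatal sum, and E64 was low in Pou3f2 and high in Lhx2, Bhlhe22 and the hippocampal sum.

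The 4 libraries of high striatal sum were set beside the other 16. Bhlhe22 was at 14.3 to 28.6 CPM in the 4 and at 35.7 to 124 CPM in the 16, without overlap. Mef2c was at 547 to 1027 CPM in the 4 and 919 to 2067 CPM in the 16, and Lhx2 at 8.92 to 13.2 and 8.60 to 37.2 CPM. Cux1 was not low in the 4 libraries, at 75.6 to 89.1 CPM against 58.4 to 84.6 CPM in the 16, and neither was Pou3f3, at 49.2 to 69.7 against 35.7 to 76.2 CPM.

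Because the libraries formed 2 clusters of striatal level, correlations with it were computed within the 16 libraries of lower level. Both series were pooled here without removal of series means, so differences between the series enter these values. Over all libraries of a series, Rasgrf2 had a mean of 188 CPM in series 1 and 241 CPM in series 2, and Rorb 126 and 160 CPM. Mef2c had r = -0.80 (permutation p = 0.00431, adjusted over 9 genes 0.0388) and a Spearman coefficient of -0.68 (p = 0.00525, adjusted 0.0254), n = 16. It was the only member to pass an adjusted p of 0.05 for r, whereas Rorb and Rasgrf2 also passed for the Spearman coefficient, at -0.67 (p = 0.00564, adjusted 0.0254) and -0.63 (p = 0.0103, adjusted 0.0309) by permutation. Without the 2 libraries farthest from the median, E249 and E58, Mef2c had r = -0.77 (permutation p = 0.00227, adjusted 0.0125) but a Spearman coefficient of -0.53 (p = 0.0581, adjusted 0.174), which did not pass (n = 14).

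Within series 1 (n = 7) the r of Mef2c was -0.43 (exact permutation p = 0.274), and within series 2 (n = 9) it was -0.96 (exact permutation p = 0.00283, adjusted 0.0254). The Spearman coefficients were -0.57 (exact permutation p = 0.200, adjusted 0.36) and -0.75 (exact permutation p = 0.0255, adjusted 0.0574), and neither passed. The series 2 set held E249 at 1319 striatal and 919 Mef2c CPM, apart from the others at 294 to 426 and 1515 to 2067 CPM. The r of Mef2c in series 2 without E249 was not computed. For Rorb the Spearman coefficient was -0.36 in series 1 (exact permutation p = 0.444, adjusted 0.571) and -0.83 in series 2 (exact permutation p = 0.00827, adjusted 0.0485). For Rasgrf2 it was -0.82 (exact permutation p = 0.0341, adjusted 0.102) and -0.55 (exact permutation p = 0.133, adjusted 0.239), and neither passed. Without E249 and E58, Rorb, Rasgrf2 and Pou3f2 also passed for r, at -0.71, -0.73 and -0.69, with adjusted permutation p of 0.0156, 0.0125 and 0.0171 (n = 14). By the Spearman coefficient no member passed in these 14 libraries, the adjusted permutation p being 0.174 for Mef2c, Rorb and Rasgrf2 and 0.351 for Pou3f2. The r of Lhx2 went from -0.66 to 0.36 and that of Cux2 from -0.61 to 0.10, so their relation rested on those libraries.

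**Figure D4:**
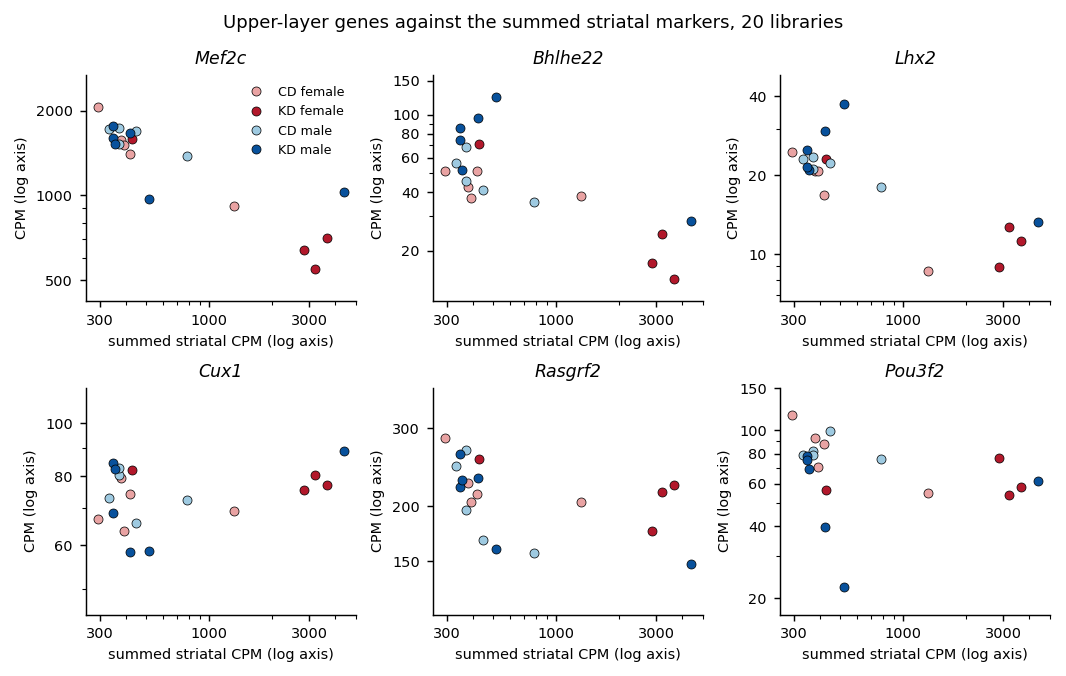
CPM of 6 members (y axes, log scale) against the summed CPM of 18 striatal markers (x axes, log scale) in the 20 libraries, colored by diet and sex. The 4 libraries at 2853 to 4406 striatal CPM held the 4 lowest values of Bhlhe22, whereas Cux1 was at 75.6 to 89.1 CPM in them.

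Genes of cortical excitatory neurons of all layers were counted beside the members. Of 8 genes tested in females, 0 were higher and 8 lower on the KD, their median log2 difference being -0.72, and 0 were DEGs. At an unadjusted p under 0.05 there were 5, where 5.5% of all genes were lower at that p. Neurod6 and Neurod2, transcription factors of excitatory neurons, had log2 fold changes of -1.45 and -0.93, and the synaptic vesicle protein Sv2b had one of -0.57, with edgeR adjusted p of 0.255, 0.281 and 0.242. Without E227 these were -2.50, -1.63 and -0.90, all DEGs (adjusted p = 0.00156, 0.00139 and 0.00221), and without E249 they were -1.69, -1.11 and -0.66, also DEGs (adjusted p = 0.0430, 0.0438 and 0.0421). Of all genes tested, 5.68% were DEGs without E227 and 6.66% without E249. In males 8 of 8 excitatory genes were again below 0, with a median of -0.16 and 0 at an unadjusted p under 0.05, among them Nrn1 at -0.22 and Neurod2 at -0.21. The sum of the 9 listed genes was 1335 (E249) to 2804 CPM in CD-fed females and 1127 to 2397 (E227) CPM in KD-fed females.

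As a share of this excitatory sum, the median was higher in KD-fed than in CD-fed females for 7 of 9 members and lower for Mef2c and Bhlhe22, as a description with no test. The sum itself had a median of 2395 CPM in CD-fed and 1182 CPM in KD-fed females, with Sv2b alone at 1268 and 722 CPM. A gene that fell less than the sum rose as a share. How many of all genes did so was not computed, so the 7 of 9 is not a trait of the members. Mef2c was at a median of 65.5% of the sum in CD-fed females and 59.4% in KD-fed females, and Bhlhe22 at 1.84% and 1.75%. Cux1 was at 3.32% and 6.59%, Rasgrf2 at 9.41% and 16.5%, and Pou3f3 at 2.96% and 4.87%. Rorb was at 5.52% and 8.45%, Cux2 at 0.940% and 1.39%, Pou3f2 at 3.89% and 4.80%, and Lhx2 at 0.819% and 0.981%, although the CPM of all 4 were lower in KD-fed females by the median. The KD range of Cux1 as a share, 3.43% to 6.84%, overlapped the CD range, 2.52% to 5.18%.

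Other genes of upper-layer excitatory neurons did not share 1 direction in females. Of the 18 on a list that excludes the members, 9 were higher and 9 lower on the KD, with a median log2 fold change of 0.043. In each direction 4 had an unadjusted p under 0.05, where 5.86% of all genes were higher and 5.5% lower at that p. Otof, which encodes the calcium sensor otoferlin, was the only DEG of this list in females, with a log2 fold change of 2.01 (SE 0.37, edgeR adjusted p = 0.0626). Otof was at 4.77 to 12.1 CPM in CD-fed and 19.0 to 52.5 CPM in KD-fed females, without overlap, as were 1.7% of all genes with the KD higher.

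Otof did not overlap between the diets in males either, at 2.70 to 12.1 and 13.7 to 32.2 CPM, as 0.102% of all genes did not with the KD higher. Its log2 fold change in males was 1.21 (SE 0.34, adjusted p = 0.9998). In KD-fed female E227, which had a low striatal sum and Mef2c in the CD range, Otof was at 19.0 CPM, above all CD-fed mice. The call of Otof in females was lost in 11 of the 20 fits that leave out 1 mouse, with adjusted p up to 0.527 without E207.

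Wfs1, an endoplasmic reticulum protein that is also made in striatum and hippocampus, had a log2 fold change of 1.70 in KD-fed females (SE 0.36, edgeR adjusted p = 0.135), and Stard8 had one of -0.67 (SE 0.17, adjusted p = 0.190). Both became DEGs without E249 (adjusted p = 0.0140 and 0.0267) and without E227 (adjusted p = 0.00957 and 0.0100), and Wfs1 also without either of the KD-fed males E59 and E64 (adjusted p = 0.0970 and 0.0492). Of all genes tested, 6.66% were DEGs without E249, 5.68% without E227, 0.245% without E59 and 0.0582% without E64. Mdga1, a cell-surface protein of upper-layer neurons, had one of 1.48 in males (SE 0.44, adjusted p = 0.9998). Averaged over the sexes, Otof, Wfs1 and Mdga1 were the 3 DEGs of the list, all higher on the KD, with adjusted p of 0.0181, 0.0583 and 0.0973.

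Deep-layer genes were also divided in females, with 10 of 20 higher and 10 lower and a median of 0.088, and 0 were DEGs. At an unadjusted p under 0.05 there were 8, of which 7 were lower, and 11.4% of all genes. The deep-layer sum was 1214 to 1674 CPM in the 4 libraries of high striatal sum and 953 to 1205 CPM in the other 16. The listed genes did not share this direction. Pcp4 and Bcl11b were highest in E59, at 670 and 224 CPM, and Foxp2 was highest in E207, at 174 CPM. Fezf2, Tbr1 and Zfpm2 were lowest of all 20 libraries in E61, at 0.427, 28.1 and 5.86 CPM. The part of the striatal difference in the deep-layer values was not tested. Tbr1, a T-box factor of layer 6, Etv1, a marker of layer 5, and Zfpm2, a cofactor of GATA proteins, had log2 fold changes of -1.01, -0.79 and -1.35 in females, with edgeR adjusted p of 0.185, 0.190 and 0.190. These 3, the genes of smallest p of the list in females, became DEGs without E249 (adjusted p = 0.00553, 0.0161 and 0.00553) and without E227 (adjusted p = 0.0201, 0.0538 and 0.0157). Of all genes tested, 6.66% were DEGs without E249 and 5.68% without E227. In males 11 deep-layer genes were higher and 9 lower, the smallest p being those of Crym at 0.68 and Nr4a2 at 0.97, each with an adjusted p of 0.9998. Crym was at 200 CPM in E64, where the KD-fed males had a median of 57.1 CPM, and its log2 fold change was 0.20 without E64. Of 8 tested relatives of the members in their own families, 4 were higher and 4 lower in females with 0 DEGs, and Lhx9 had a log2 fold change of 1.29 there (edgeR adjusted p = 0.626), and 0.73 without E61.

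The striatal markers themselves were higher on the KD for 18 of 18 genes in females (median 2.11 on the log2 scale), 15 at an unadjusted p under 0.05, where 5.86% of all genes were higher at that p, and 0 DEGs. Drd1a, Drd2 and Adora2a, receptors of striatal spiny neurons, had log2 fold changes of 2.09, 3.26 and 3.47, and Ppp1r1b one of 2.12, with edgeR adjusted p of 0.364, 0.382, 0.365 and 0.281. Single libraries moved these values: without E207 they were 1.26, 1.40, 1.57 and 1.29, and without E249 they were 3.39, 5.56, 5.55 and 2.58, all DEGs (adjusted p = 0.0233, 0.0522, 0.0556 and 0.0674). Ppp1r1b was also a DEG without E227 (2.47, adjusted p = 0.0884) and without the KD-fed male E59 (adjusted p = 0.0760). Of all genes tested, 6.66% were DEGs without E249, 5.68% without E227 and 0.245% without E59. In males the striatal markers were above 0 for 18 of 18 with a median of 1.15, 1 at an unadjusted p under 0.05, and the sum was 346 to 518 CPM in 5 of the 6 KD-fed males and 4406 CPM in E59.

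The KD-fed males E64 and E254 stood apart in another way. E64 and E254 had the highest Bhlhe22, at 124 and 96.1 CPM, and the highest Lhx2, at 37.2 and 29.4 CPM. They also had the lowest Pou3f2 of all 20 libraries, at 22.3 and 39.7 CPM, and the lowest Cux1, at 58.4 CPM in both.

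The summed level of 8 hippocampal markers was 119 CPM in E64, 24.3 CPM in E254 and 13.9 to 24.7 CPM in the other 18 libraries. Markers of oligodendrocytes summed to 1391 CPM in E64 and 1554 CPM in E254, and to at least 2443 CPM in CD-fed males. The part of either in the levels of Bhlhe22, Lhx2 and Pou3f2 was not tested. Without E64 the log2 fold change of Lhx2 in males went from 0.16 to -0.036.

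**Figure D5:**
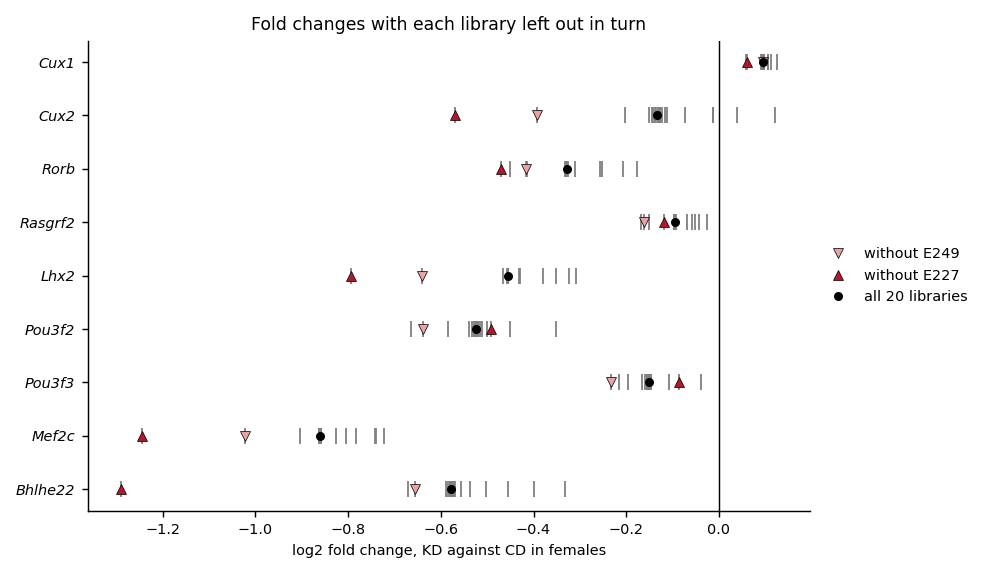
Log2 fold change in females, KD against CD (x axis), of each member (y axis) with all 20 libraries (black points) and with each library left out in turn (grey ticks), the fits without KD-fed E227 and CD-fed E249 being marked by triangles. Mef2c ranged from -1.24 to -0.72 and stayed below 0, whereas Cux2 ranged from -0.57 to 0.12.

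For each member, the genes most like it across the 20 libraries were listed by Pearson r after removal of series means. Mef2c was closest to the noncoding gene A830019L24Rik and to Mlip (r = 0.98 and 0.97), Bhlhe22 to the receptor tyrosine kinase Met and to Cdkl4 (r = 0.95 for both), and Lhx2 to the peptide gene Grp and the serotonin receptor Htr3a (r = 0.93 and 0.92). Pou3f2 was closest to the synapse organizer Cbln2 and the sodium channel Scn1a (r = 0.92 for both), and Pou3f3 to Wt1 and Camta1 (r = 0.94 and 0.91). Cux2 was closest to Hist2h2bb and Atg7 (r = 0.96 and 0.95), Rorb to Eya4 and Slc30a4 (r = 0.84 for both), Rasgrf2 to Pank1 and Pde4d (r = 0.78 and 0.77) and Cux1 to Cish and Mdm2 (r = 0.79 and 0.78). None of these 18 genes was itself a member.

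None of these neighbors was a DEG in either sex. Those of Mef2c had log2 fold changes of -1.51 (A830019L24Rik) and -0.86 (Mlip) in females, with edgeR adjusted p of 0.273 and 0.231, where Mef2c had -0.86. Grp, as Lhx2, was below 0 in females and above 0 in males, at -0.78 and 0.42, and Met, as Bhlhe22, at -0.27 and 0.57, and both had adjusted p of at least 0.797. Across so few libraries the highest of many r values is a ranking and not a test.

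For 4 members the counts could include reads of another annotated gene. Cux1 (chromosome 5, 136248135 to 136567490) overlaps 4 genes, Cux2 (chromosome 5, 121856366 to 122050102) and Lhx2 (chromosome 2, 38339281 to 38369733) each overlap 2 antisense genes, and Pou3f3 overlaps 1 gene on its own strand. The strand counted is not given in the sources used here. Rorb, Rasgrf2, Pou3f2, Mef2c and Bhlhe22 overlap no other gene of the annotation.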

How the data were processed

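Cortex RNA of 20 mice was measured. The authors mapped reads with STAR (mm10) and deposited raw counts per gene; versions, annotation and the counted strand are not given in the sources used here. From the counts, CPM and log2 CPM (prior count 2) were computed. DEGs were sought with edgeR 4.0.16 under R 4.3.3 (quasi-likelihood F test, upper-quartile normalization, filterByExpr, 4 groups and library series, Benjamini-Hochberg over 15660 genes), at FDR 0.1 and 1.5-fold as in the study. Alternatives used TMM, RLE, other filters, no series term, RUVg (controls being the genes outside the 5000 of smallest p), the likelihood ratio test, DESeq2 1.42.0, each sex, each series, and each mouse left out. Exact permutation tests took all splits within a sex. The striatal correlation was planned over all libraries and was run within the lower cluster, with 100000 resamples, because the libraries formed clusters.

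Members, marker lists and tests were chosen with earlier results of these data known. Named genes were the members, in females the 3 and in males the 2 of smallest p per related list, 4 striatal markers and Ttr, Apoe, and the 2 genes most like each member. On simulated counts for the comparison in females (15660 genes, 200 changed), 74.5% of 2-fold and 87.5% of 3-fold changes were recovered. In the measured libraries, 0 of the 18 striatal markers were DEGs in females, at a median log2 fold change of 2.105. Whether the recovery on simulated counts holds for the measured libraries was not tested. The totals set the counting error of each value. Coordinates came from GENCODE for GRCm38, the assembly of mm10, and promoters from RefSeq, where 8 of 9 members matched. 1 gene of a related list is not reported here.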

Additional observations from a re-analysis of the deposited data

Results flagged for a closer look

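In 60 sets of values, each a member or a summed list in the libraries of 1 group, 13 held a library farther from its neighbors than Dixon's 95% criterion allows, where chance gives about 3. The ratio of the gap to the range is given for each.

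Among the members, Mef2c in KD-fed females had E227 at 1592 CPM and the others at 547 to 708 CPM (ratio 0.845), and the sum of the 9 members had E227 at 2322 CPM and the others at 1094 to 1272 CPM (0.855). Mef2c alone supplied 1592 of the 2322 CPM in E227, so the flag of the sum is not separate from that of Mef2c. Rasgrf2 in CD-fed females had E265 at 285 CPM and the others at 205 to 225 CPM (0.744). Pou3f2 in CD-fed males had E66 at 99.0 CPM and the others at 75.8 to 81.9 CPM (0.739).

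The striatal sum was high in CD-fed female E249 at 1319 CPM (0.877), in CD-fed male E58 at 784 CPM (0.751) and in KD-fed male E59 at 4406 CPM (0.958). The cortical excitatory sum of KD-fed females was high in E227 at 2397 CPM, with the others at 1127 to 1218 CPM (0.928). The deep-layer sum of KD-fed males was high in E59 at 1674 CPM (0.788), and their hippocampal sum in E64 at 119 CPM (0.901).

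The choroid plexus sum was high in CD-fed female E249 at 43.7 CPM (0.956), low in KD-fed female E227 at 31.3 CPM with the others at 48.3 to 50.0 CPM (0.913), and high in KD-fed male E59 at 2370 CPM (0.988).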

How the results depend on the processing

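In females the count of members called was 0. It became 1, Mef2c in each case, with 2 RUVg factors, the likelihood ratio test, DESeq2 or series 1 alone. With 1 mouse left out it ranged from 0 to 2, where 0% to 6.66% of all genes were DEGs. Averaged over the sexes the count of members called was 1 in series 1 alone and ranged from 0 to 2. Between the sexes it was 1 with DESeq2 and ranged from 0 to 3. In males and for the difference of the diet effects it was 0 under every alternative run. The shares of all genes called under the other alternatives are not given here, so these counts of members are not set against them. Signs turned for Cux1 in series 1 alone (-0.019 in females, 0.050 in males), Cux2 in females with 2 RUVg factors (0.17) and in series 2 (0.65), Cux2 in males with 1 and 2 RUVg factors (0.011 and 0.059) and in series 1 (0.062), Rasgrf2 in females with 2 RUVg factors (0.055), Rorb and Rasgrf2 in males without the series term (0.0041 and 0.0096), Rasgrf2 in males with 2 RUVg factors (0.0069), and, in females in series 2, Lhx9 (-0.28) and the choroid plexus gene Ttr (0.67). With 1 mouse left out, ranges that crossed 0 were -0.57 to 0.12 (Cux2) and -2.36 to 0.38 (Ttr) in females, and in males -0.10 to 0.042 (Cux1), -0.16 to 0.20 (Cux2), -0.14 to 0.093 (Rorb), -0.10 to 0.029 (Rasgrf2) and -0.036 to 0.28 (Lhx2). The number of members whose r with the striatal sum passed, 1, was 4 without the 2 farthest libraries and 0 in series 1. By the Spearman coefficient it was 3, and it was 0 without the 2 farthest libraries, 0 in series 1 and 2 in series 2. The cause of these shifts was not tested. No paired analysis was possible because the groups share no replicate numbers. Depth limits the genes at few CPM, such as Pou3f4 and Lhx9.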
